A study of Schizosaccharomyces pombe with 9 samples.

Results

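The core histone genes of the fission yeast Schizosaccharomyces pombe were examined in 9 poly(A) RNA-seq libraries, 3 from each of 3 strains. They were taken by identifier and comprise 3 histone H3 genes (hht1, SPAC1834.04; hht2, SPBC8D2.04; hht3, SPBC1105.11c), 3 H4 genes (hhf1, SPAC1834.03c; hhf2, SPBC8D2.03c; hhf3, SPBC1105.12), 2 H2A genes (hta1, SPCC622.08c; hta2, SPAC19G12.06c), the single H2B gene (htb1, SPCC622.09) and the H2A.Z variant gene pht1 (SPBC11B10.10c). These are 10 of the 6986 identifiers in the count table, and all 10 were among the 6147 genes with enough counts to be tested. The strains were WT (replicates 4, 5 and 6), an aps1 deletion (replicates 1, 2 and 3) and asp1-D333A (replicates 1, 2 and 3), all grown at 30 °C in YES medium and collected in log phase of vegetative growth. Each group came from 1 laboratory strain, so a strain difference other than the named allele cannot be told apart from it, and p-values measure the spread between these samples, which the labels do not tie to separate cultures. Aps1 is a Nudix hydrolase that breaks down inositol pyrophosphates, and Asp1 is the enzyme whose kinase domain makes them and whose other domain breaks them down. D333A is an amino acid change in the kinase domain that abolishes its activity, so the study set a strain lacking one breakdown enzyme beside one that cannot carry out the kinase step.

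Core histones package DNA into nucleosomes, in which an H3-H4 tetramer is flanked by H2A-H2B dimers. Their genes are transcribed mainly in S phase, when replicated DNA needs new nucleosomes, and in fission yeast the GATA-type factor Ams2 activates them through a short promoter sequence, AACCCT, known as the histone box. Yeast histone mRNAs carry poly(A) tails, unlike the replication-dependent histone mRNAs of animals, and therefore enter poly(A)-selected libraries. H2A.Z is a variant found at the nucleosomes beside gene starts, where the SWR1 complex exchanges it for H2A.

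Of the 9 libraries, asp1-D333A replicate 3 stood apart from its own group. Chi-square per gene was 61.7 and 74.7 between it and the other asp1-D333A libraries, against 6.45 between those 2 and at most 19.9 between libraries of the other strains. Results for asp1-D333A are therefore given with and without it. To a lesser degree aps1 deletion replicate 1 lay apart, at 16.1 and 19.9 from replicates 2 and 3 of its strain, against 4.23 between those. Total counts ran from 18244492 to 22999732 per library. The aps1 mRNA was at 135.76 ± 9.70 CPM (counts per 1000000 counts of TMM-scaled library size) in WT and 9.12 ± 1.99 in the deletion (mean ± SD, n = 3 here and throughout), while a point change such as asp1-D333A leaves no trace that gene counts could check. The histone genes themselves had 2587 to 63866 counts in each library, so counting error was small beside the spread between libraries.

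Of the 10 genes, 8 are arranged as divergent pairs that share the DNA between their starts, namely hhf1 with hht1, hhf2 with hht2, hht3 with hhf3 and hta1 with htb1, while hta2 and pht1 stand alone. The DNA before their starts is shown because 9 of the 10 genes share one feature in it. The sequences come from RefSeq assembly ASM294v3, by an exact match of the annotated gene; the counts had been made on ASM294v2, per the submitters' processing notes, and coordinates of the 2 builds were not mixed. Capitals mark AACCCT or its reverse complement, and every sequence is written 5′ to 3′ on the strand named. The hhf1-hht1 interval is I:4699600-4699731 (+ strand, 132 bases), the hhf2-hht2 interval II:1364985-1365118 (+, 134 bases), and the hta1-htb1 interval III:1412182-1412358 (+, 177 bases). For hht3-hhf3, the 120 bases next to hht3 are given, II:3529566-3529685 (+), since no leader is annotated for hhf3. For hta2 and pht1 the 250 bases before the start are given, at I:4053319-4053568 (-) and II:1503445-1503694 (-).
hhf1-hht1: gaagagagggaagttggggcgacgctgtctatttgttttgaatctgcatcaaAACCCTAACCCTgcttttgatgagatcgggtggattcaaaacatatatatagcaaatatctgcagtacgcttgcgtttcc
hhf2-hht2: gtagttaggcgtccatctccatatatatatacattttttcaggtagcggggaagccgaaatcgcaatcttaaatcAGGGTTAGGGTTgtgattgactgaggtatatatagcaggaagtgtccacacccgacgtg
hht3-hhf3: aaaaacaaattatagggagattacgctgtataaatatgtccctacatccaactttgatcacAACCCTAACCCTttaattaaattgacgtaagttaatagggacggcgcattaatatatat
hta1-htb1: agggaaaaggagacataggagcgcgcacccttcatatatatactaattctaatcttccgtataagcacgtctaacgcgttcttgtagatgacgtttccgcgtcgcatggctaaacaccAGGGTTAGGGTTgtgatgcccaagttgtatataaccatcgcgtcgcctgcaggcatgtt
hta2: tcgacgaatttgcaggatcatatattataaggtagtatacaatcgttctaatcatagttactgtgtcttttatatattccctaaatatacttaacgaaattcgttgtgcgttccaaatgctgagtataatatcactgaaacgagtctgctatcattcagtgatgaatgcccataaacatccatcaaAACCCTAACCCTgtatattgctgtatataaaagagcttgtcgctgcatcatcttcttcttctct
pht1: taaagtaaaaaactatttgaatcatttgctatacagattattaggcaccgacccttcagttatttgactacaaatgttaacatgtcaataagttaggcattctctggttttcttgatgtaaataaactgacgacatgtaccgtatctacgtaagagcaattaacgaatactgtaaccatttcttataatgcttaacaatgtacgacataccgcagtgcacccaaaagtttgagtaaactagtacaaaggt

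In every core histone promoter the box occurred as a direct repeat of 12 bases, AACCCTAACCCT, on one strand or the other. In the divergent pairs a single repeat served both starts. Its nearer edge lay 48 bases before the start of hht2 and of htb1, 53 before hhf1 and hta2, 62 before hht3, 69 before hht1, 76 before hhf2, 119 before hta1 and 129 before the annotated start of hhf3. A single AACCCT on either strand was found in 496 of 5107 promoter windows (9.712%; 250 bases before to 50 after the start of each gene), and the repeat in 20 (0.392%), of which 9 were the core histone genes other than pht1. ACGCGT, the box bound by the S-phase factor MBF, was found in 166 windows (3.25%), including the shared one of hta1 and htb1. A match describes these letters and does not show that a factor binds there.

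The proteins within a type were nearly uniform. The 3 H3 genes encode the same 136 residues and the 3 H4 genes the same 103, while their coding sequences were 88.3% to 92.7% and 91.3% to 93.3% identical. The 2 H2A proteins, of 132 and 131 residues, differed in 3 aligned columns and were 97.7% identical. H2A.Z, with 139 residues, was 52.9% identical to the hta1 product and 53.6% to the hta2 product. None of the 10 genes has an annotated intron. The longest run of bases shared by transcripts of any H3, H4 or H2A pair was 55, between hhf2 and hhf3. How reads with several matches were treated is not given in the sources used here, so the division of counts within a type is uncertain to that extent.

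Compared per length of transcript, the levels in WT spanned about an order of magnitude. The H2B gene htb1 had the highest mean, 1654 ± 90.9 CPM per kb, though it overlapped the next gene, hht3, within their SDs. Next came 3 genes whose values overlapped within their SDs, hht3 at 1486 ± 83.6, hht1 at 1461 ± 80.9 and hta2 at 1394 ± 34.5 CPM per kb. Below them came hhf1 at 1161 ± 34.9 CPM per kb. The next neighbours, hhf3 at 941.5 ± 57.0 and hht2 at 903 ± 28.7 CPM per kb, also overlapped within their SDs. Lower still were hta1 at 816 ± 44.6 and hhf2 at 559 ± 23.3 CPM per kb, each separate from its neighbours. The H2A.Z gene pht1, at 145 ± 4.71 CPM per kb, was the lowest of the 10. Together the 9 core genes took 0.859% to 0.953% of all counts in the WT libraries.

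**Figure D1:**
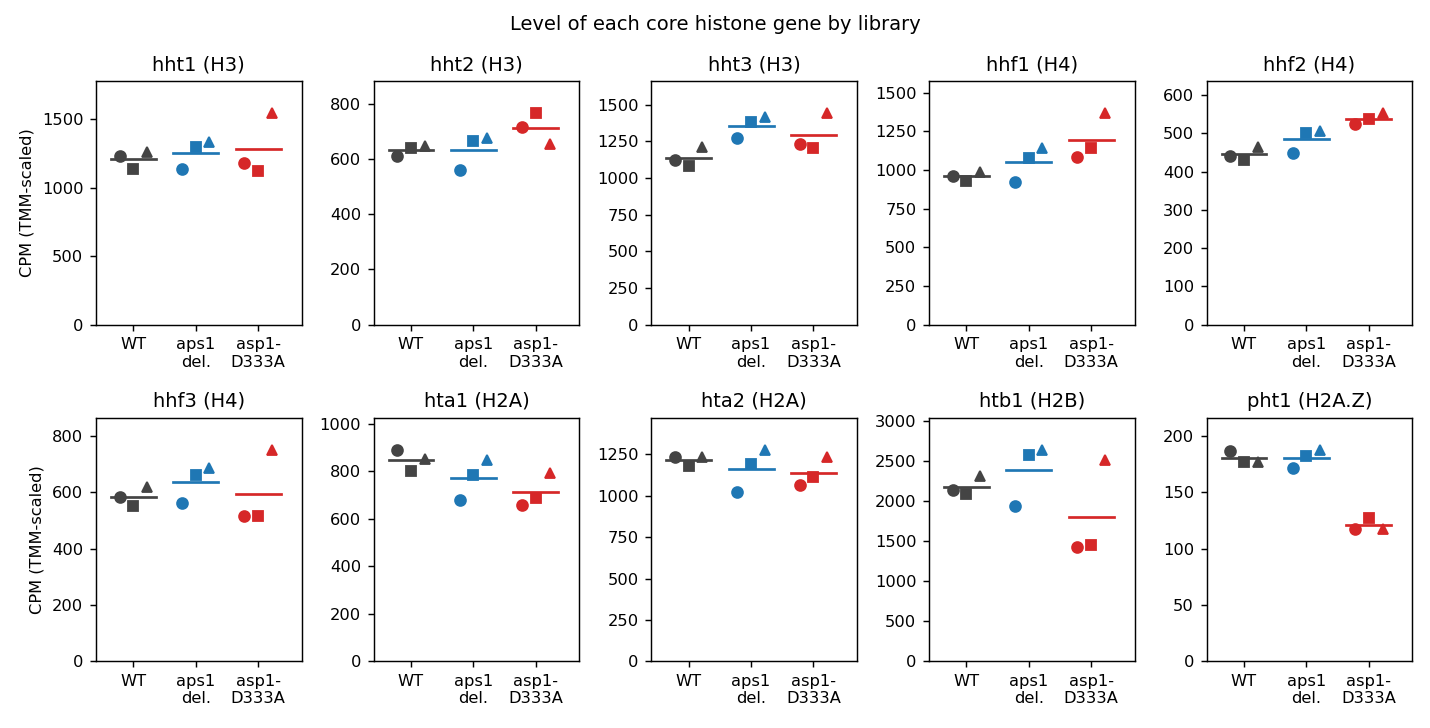
Level of each core histone gene in CPM (y axis, starting at 0) in the 9 libraries, by strain (x axis); points are libraries, with circles, squares and triangles for the lowest, middle and highest replicate number of a strain, and lines are means of 3. In asp1-D333A, pht1 lies between 118 and 127 CPM in all 3 libraries, below the 176 to 187 CPM of WT, while htb1 is at 1429 and 1451 CPM in replicates 1 and 2 and at 2519.7 CPM in replicate 3.

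In the aps1 deletion the core histone mRNAs stayed close to WT. None of the 10 genes passed the test (edgeR's quasi-likelihood test, Benjamini-Hochberg adjusted over 6147 genes, threshold 0.05), where 16.6% of all genes tested did, 6.73% higher and 9.83% lower. The lowest unadjusted p of the 10 genes was 0.011 (edgeR quasi-likelihood test), for hht3. DESeq2 called 1 gene, hht3, beside 18.9% of all genes. So did the fit without asp1-D333A replicate 3, beside 27%. The median log2 fold change was 0.09 over the 10 genes and -0.01 over all genes. The extremes were hta1 at -0.14 and hht3 at 0.25. Of all calls 40.7% were higher, against 29.0% and 24.8% with upper-quartile and total-count scaling, under which none of the 10 genes was called either.

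Among the H3 genes, hht3 had 1120.3, 1086 and 1209.8 CPM in WT replicates 4, 5 and 6, and 1272, 1384 and 1417 CPM in the aps1 deletion. It was the only one of the 10 for which the 2 groups of libraries did not overlap, which was so for 39.2% of all genes tested. The log2 fold change was 0.25 (SE 0.09, 95% interval 0.07 to 0.44; edgeR quasi-likelihood adjusted p = 0.061). That p ranged from 0.0076 to 0.19 over 15 alternative settings, of which 4 called the gene. The lowest was without asp1-D333A replicate 3, a library outside this comparison that enters the shared estimate of spread. The others were DESeq2 (adjusted p = 0.012), edgeR with the 6 libraries of the pair (0.012), and edgeR without aps1 deletion replicate 1 (0.046). For the other H3 genes, hht1 gave 0.05 (interval -0.19 to 0.29) and hht2 gave 0.00 (-0.18 to 0.18) on the log2 scale. The hht3 transcript overlaps the 3′ end of rav1, annotated on the opposite strand, by 46 bases, and the use of strand in counting is not given in the sources used here.

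The H4 genes had log2 fold changes of 0.13 for hhf1, 0.12 for hhf2 and 0.12 for hhf3 in the aps1 deletion, each with an interval that included 0. The H2A genes had -0.14 (hta1, interval -0.34 to 0.06) and -0.07 (hta2, -0.26 to 0.13). For htb1 the libraries had 2145, 2085 and 2316 CPM in WT and 1944, 2577 and 2644 CPM in the deletion. The deletion libraries lay on both sides of the WT values, and the log2 fold change of 0.13 carried an interval from -0.33 to 0.59. In pht1 both strains averaged 180 CPM, with SDs of 5.85 and 8.37, and the interval of the log2 difference ran from -0.12 to 0.13.

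In asp1-D333A, 2 H4 genes rose and 2 genes of the H2A family fell. The genes called were hhf1 and hhf2, higher, and hta1 and pht1, lower, or 4 of 10 beside 61.1% of all genes tested; 30.3% of all genes were called higher and 30.8% lower. The median log2 fold change was 0.05 over the 10 genes and 0.01 over all genes. CPM did not overlap between the strains for 5 of the 10 genes (hht2, hhf1, hhf2, hta1 and pht1), beside 65.7% of all genes. Both mutants were compared with the same WT libraries, so the 2 sets of values are not independent. In bulk cultures a change in the share of cells that are in S phase and a change in mRNA per cell cannot be told apart.

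The choice of scaling mattered for this strain. With upper-quartile or total-count scaling in place of TMM, the median of all genes moved from 0.01 to 0.18 or 0.14 on the log2 scale, and the share of calls that were higher from 49.6% to 67.3% or 63.7%. Under both scalings hht2, hht3, hhf1 and hhf2 were called higher and pht1 alone lower, and the call for hta1 was lost. Of all genes, 64.1% and 61.1% were called under upper-quartile and total-count scaling. All further values are on the TMM scale, relative to a median near 0.

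The H4 gene hhf1 had 961, 931 and 989 CPM in WT and 1082, 1138 and 1369 CPM in asp1-D333A. All 3 mutant libraries lay above all WT libraries. The log2 fold change was 0.32 (SE 0.10; edgeR quasi-likelihood adjusted p = 0.013), and 0.21 (adjusted p = 0.031) without asp1-D333A replicate 3. Its paralog hhf2 had 441, 429 and 465.5 CPM in WT and 524, 537 and 554 CPM in the mutant. These 3 mutant values were close together, and the log2 fold change was 0.27 (SE 0.07; edgeR quasi-likelihood adjusted p = 0.003). Both calls held in each of 15 alternative settings. The remaining H4 gene, hhf3, behaved differently between libraries, with 585, 550.2 and 621 CPM in WT and 516, 517 and 753 CPM in the mutant. Replicates 1 and 2 lay below WT and replicate 3 above, so the log2 fold change was 0.02 (interval -0.27 to 0.31) with all libraries and -0.18 (edgeR quasi-likelihood adjusted p = 0.053) without replicate 3.

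Of the H3 genes, hht2 had 609, 639.7 and 647 CPM in WT and 716, 766 and 653 CPM in asp1-D333A. The groups did not overlap, though the lowest mutant library, replicate 3, lay close to the highest WT library. The log2 fold change was 0.17 (interval -0.01 to 0.35; edgeR quasi-likelihood adjusted p = 0.093) and passed the test at 0.23 without replicate 3 (adjusted p = 0.015). For hht3 it was 0.18 (interval 0.00 to 0.37; edgeR quasi-likelihood adjusted p = 0.079) and 0.10 without that library. The hht1 libraries had 1235, 1135 and 1263 CPM in WT and 1178, 1121 and 1546 CPM in the mutant. Only replicate 3 lay above the WT range, and the log2 fold change was 0.08 (interval -0.16 to 0.32) with it and -0.08 without it.

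The H2A gene hta1 had 891.5, 799 and 851 CPM in WT and 659, 686 and 791 CPM in asp1-D333A. Replicate 3 lay just under the lowest WT library and the others well below. The log2 fold change was -0.25 (SE 0.09; edgeR quasi-likelihood adjusted p = 0.032), and -0.33 without replicate 3 (adjusted p = 0.0022). The call was not firm: the adjusted p was 0.45 and 0.25 under upper-quartile and total-count scaling, and 0.05 to 0.12 when any WT library, or mutant replicate 1 or 2, was left out. For hta2, with 1217 ± 30.2 CPM in WT and 1136 ± 86.7 in the mutant, the log2 fold change was -0.10 (interval -0.29 to 0.09), and it turned to 0.07 and 0.04 under upper-quartile and total-count scaling.

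The H2B gene htb1 varied most between the mutant libraries. It had 1429 and 1451 CPM in asp1-D333A replicates 1 and 2, below the 2085 to 2316 CPM of WT, and 2519.7 CPM in replicate 3, above it. With all libraries the log2 fold change was -0.28 (SE 0.21, interval -0.74 to 0.18; edgeR quasi-likelihood adjusted p = 0.27). Without replicate 3 it was -0.60 (SE 0.11, adjusted p = 2.5e-04). The 3′ end of htb1 overlaps sec5, a gene of the exocyst on the opposite strand, by 258 bases; sec5 was at 90.3 ± 4.09 CPM in WT and 54.6 ± 3.95 in the mutant.

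Replicate 3 was not raised evenly over the histone genes. Its CPM relative to the mean of replicates 1 and 2 was 1.75 for htb1, 1.46 for hhf3 and 1.35 for hht1. The ratio was between 1.13 and 1.23 for hhf1, hht3, hta1 and hta2. It was 1.04 for hhf2, 0.96 for pht1 and 0.881 for hht2. Without this library 6 of the 10 genes were called in asp1-D333A, with hht2, hhf1 and hhf2 higher and hta1, htb1 and pht1 lower, beside 64% of all genes.

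The H2A.Z gene pht1 had the largest change of the 10 genes in asp1-D333A with all libraries; without replicate 3 that of htb1 was larger (-0.60 against -0.56). Its libraries had 187, 176 and 177 CPM in WT, 171, 182 and 188 CPM in aps1 deletion cells, and 118, 127 and 118 CPM in asp1-D333A. The aps1 deletion overlapped WT, and every asp1-D333A library lay below every other library. Against WT the level fell by 32.9%, a log2 fold change of -0.57 (SE 0.06, interval -0.70 to -0.45; edgeR quasi-likelihood adjusted p = 3.3e-06), and it was called in each of 15 alternative settings, with -0.56 without replicate 3. As a share of H2A and H2A.Z levels per kb, pht1 made up 5.99% to 6.27% in WT, 6.21% to 7.04% in aps1 deletion cells and 4.17% to 5.03% in asp1-D333A. The other histone variant gene of this yeast, cnp1, which encodes the centromeric H3, was at 24.3 ± 1.17 CPM in WT, 25.8 ± 1.66 in aps1 deletion cells and 14.7 ± 1.46 in asp1-D333A. It too was lower in asp1-D333A, with a log2 fold change of -0.73 (SE 0.10; edgeR quasi-likelihood adjusted p = 4.2e-05).

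**Figure D2:**
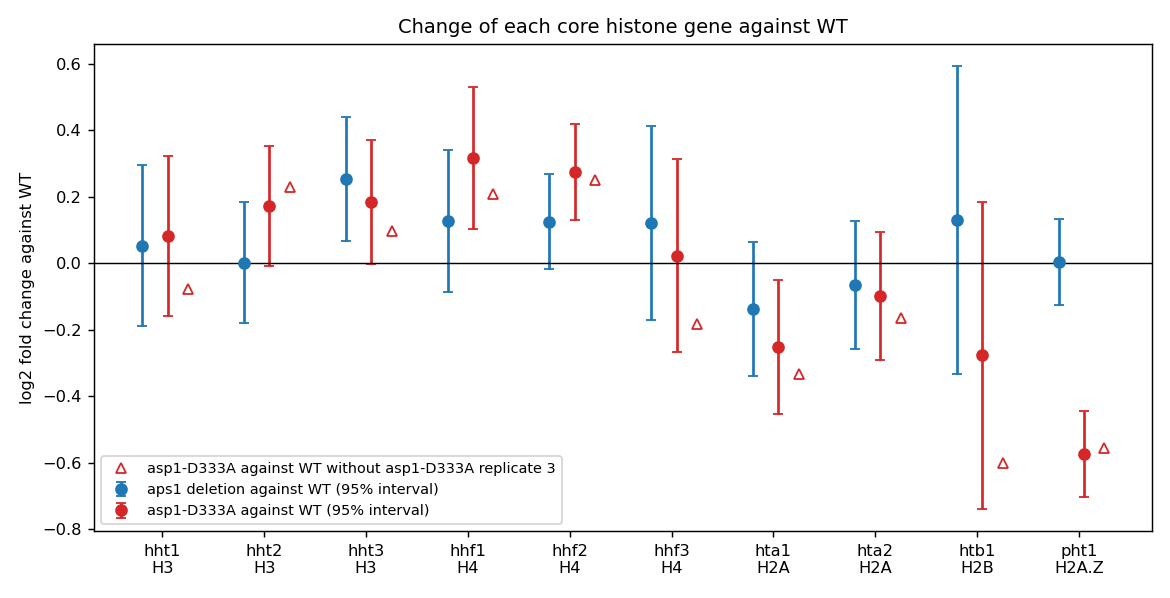
Log2 fold change against WT (y axis) of each core histone gene (x axis) in the aps1 deletion (blue) and asp1-D333A (red), with 95% intervals, and for asp1-D333A without replicate 3 (open triangles). The intervals of hhf1 and hhf2 lie above 0 and those of hta1 and pht1 below 0 in asp1-D333A; hta1 at -0.25 loses its call, and hta2 at -0.10 turns to 0.07 or 0.04, under upper-quartile or total-count scaling.

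When the mutants were compared with each other, only pht1 passed the test, 1 of 10 genes beside 68.8% of all genes tested (33.9% higher and 34.9% lower in the deletion). Its level was higher in the aps1 deletion, by 0.58 on the log2 scale (SE 0.06; edgeR quasi-likelihood adjusted p = 1.9e-06). CPM did not overlap between the mutants for hhf2 and pht1, beside 70.5% of all genes. The largest other difference was that of htb1, 0.41 (interval -0.05 to 0.87; edgeR quasi-likelihood adjusted p = 0.10). Without asp1-D333A replicate 3 it was 0.73 (edgeR quasi-likelihood adjusted p = 3.3e-05). In that fit hhf3 (0.31), hta1 (0.20) and pht1 (0.56) were also called higher and hht2 (-0.23) lower in the deletion. That was beside 71.3% of all genes called. In this comparison upper-quartile and total-count scaling moved the median of all genes from -0.04 to -0.25 and -0.23, and the share of calls that were higher from 49.3% to 31.5% and 33.0%. Under both, hht2, hhf1 and hhf2 were called lower in the deletion and pht1 stayed higher, at 0.36 and 0.39. Of all genes, 72% and 69.8% were called under these scalings.

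The division of counts within a histone type was compared between strains by library. In WT, hht1 supplied 40.6% ± 0.995 of H3 counts, hht3 38.2% ± 0.531 and hht2 21.2% ± 0.998. In the aps1 deletion hht3 supplied 42.9%, 41.4% and 41.4%, all above the WT range of 37.8% to 38.8%, and hht1 38.3%, 38.8% and 38.9%, all below the WT range of 39.7% to 41.7%. In asp1-D333A the share of hht3 was 39.4%, 38.9% and 39.7%, also above the WT range. There the share of hht2 was 22.9%, 24.8% and 17.9%, outside the WT range in opposite directions.

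Among the H4 genes, hhf1 supplied 48.2% ± 0.558 of the counts in WT, hhf3 29.4% ± 0.568 and hhf2 22.4% ± 0.162. In asp1-D333A the share of hhf1 was 51.0%, 51.9% and 51.2%, above all WT and aps1 deletion libraries, and that of hhf3 was 24.3%, 23.6% and 28.1%, below all of them. The share of hta1 in H2A counts was 41.0% ± 0.809 in WT and 38.5% ± 0.506 in asp1-D333A, without overlap. With 3 libraries against 3, an exact two-sided permutation test cannot go below p = 0.10, which these shares reached, and over the 24 such tests the Benjamini-Hochberg adjusted value was 0.16. The test could therefore not pass the 0.05 threshold for any share, and the shares are given as a description.

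The balance between histone types was read from summed CPM per kb. The ratio of H3 to H4 was 1.44 to 1.45 in the WT libraries, 1.42 to 1.48 in aps1 deletion cells and 1.45, 1.39 and 1.32 in asp1-D333A replicates 1, 2 and 3. The ratio of H2A to H2B was 1.40, 1.34 and 1.27 in WT and 1.24, 1.08 and 1.14 in the aps1 deletion. The deletion libraries all lay below WT, and in asp1-D333A the ratio was 1.71, 1.76 and 1.14, with replicate 3 apart. The ratio of H3 to H2B showed the same split, at 2.29 to 2.35 in WT, 2.21 to 2.60 in aps1 deletion cells, and 3.74, 3.65 and 2.45 in asp1-D333A. The 9 core genes together had 8838 to 9596 CPM in WT, 8544 to 10533 in aps1 deletion cells, and 8400.1, 8530.04 and 10863 CPM in asp1-D333A.

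**Figure D3:**
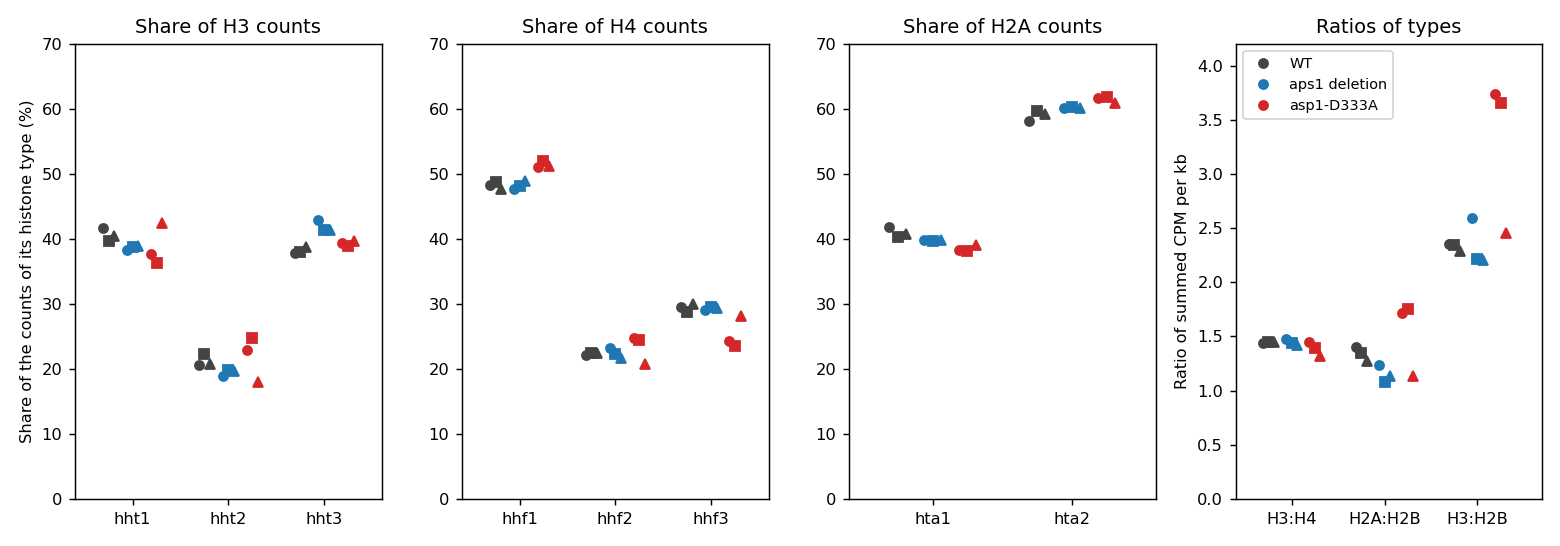
Share of each gene in the counts of its histone type (first 3 panels, y axis in %) and ratios of the summed CPM per kb of histone types (last panel), one point per library, coloured by strain; circles, squares and triangles are the lowest, middle and highest replicate number. The ratio of H3 to H2B is 3.74 and 3.65 in asp1-D333A replicates 1 and 2, 2.45 in replicate 3, and 2.29 to 2.35 in WT.

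The genes that act on histone synthesis and handling were read from lists chosen by function. For comparison, 16.6% of all genes tested passed in the aps1 deletion (6.73% higher, 9.83% lower) and 61.1% in asp1-D333A (30.3% higher, 30.8% lower), so that a list with a like share of calls does not stand apart from the genes at large. Among 18 regulators of histone genes and histone chaperones, 1 rose and 0 fell in aps1 deletion cells, and 4 rose and 6 fell in asp1-D333A (median log2 fold change -0.06). Leaving out asp1-D333A replicate 3 gave 3 higher and 9 lower in asp1-D333A, beside 64% of all genes called. It gave 3 higher in aps1 deletion cells, beside 27%. Upper-quartile or total-count scaling gave 5 higher and 4 lower in asp1-D333A, beside 64.1% or 61.1% of all genes. The largest fall was that of ams2, the activator of the histone box, from 186 ± 9.06 CPM in WT to 77.6 ± 0.893 in asp1-D333A (log2 fold change -1.26, SE 0.06; edgeR quasi-likelihood adjusted p = 3.7e-09). With aps1 deleted, ams2 was at 176 ± 6.80 CPM.

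The gene nap1, for a chaperone of H2A-H2B dimers, rose in both mutants. It was at 251 ± 6.35 CPM in WT, 562 ± 29.8 in the aps1 deletion (log2 fold change 1.16, SE 0.07; edgeR quasi-likelihood adjusted p = 4.1e-07) and 467 ± 37.6 in asp1-D333A (0.89, SE 0.07, adjusted p = 3.8e-07). Genes for a pair of proteins that bring Cnp1 to the centromere went in opposite directions in asp1-D333A. The chaperone gene sim3 rose by 0.65 and mis16, an RbAp46/48-type histone-binding protein, fell by 0.56 on the log2 scale. The gene teb1, named after its values were seen because its product also binds the histone box, fell by 0.54 on that scale (edgeR quasi-likelihood adjusted p = 1.7e-04). In the SWR1 complex, which deposits H2A.Z, 5 of 13 genes rose and 2 fell in asp1-D333A, beside 30.3% and 30.8% of all genes, and 8 or 7 were higher under upper-quartile or total-count scaling. Among the 5 were vps71 at 1.00 (SE 0.16) and arp6 and swc2 at 0.84 (SE 0.15 and 0.11). With aps1 deleted, 1 of the 13 rose, arp6, at 0.62, beside 16.6% of all genes called (2 without asp1-D333A replicate 3, beside 27%).

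Markers of cell cycle position were mostly lower in asp1-D333A, where 30.3% of all genes were called higher and 30.8% lower. In the aps1 deletion those shares were 6.73% and 9.83%. Of 21 genes of S phase, including targets of MBF and replication genes, 13 fell and 1 rose in asp1-D333A (median -0.51), and 2 rose in the aps1 deletion (1 under either other scaling). The summed CPM of the list was 3259 to 3394 in WT, 3353 to 3576 in aps1 deletion cells, and 2595, 2503 and 2484 in asp1-D333A. Unlike the histone genes, whose sum was higher in replicate 3, this list had its lowest sum there. Among its members cdt2, for an adaptor of a ubiquitin ligase active in S phase, fell by 1.36, cdc18, a replication initiator, by 1.23, the kinase gene mik1 by 1.20, and the S-phase cyclin gene cig2 by 1.07 on the log2 scale, with edgeR quasi-likelihood adjusted p from 2.1e-08 to 4.1e-07. Of 14 mitosis genes, 13 fell in asp1-D333A (median -0.45), among them slp1, for an activator of the anaphase-promoting complex, at -1.03 (SE 0.12). In the aps1 deletion 0 passed. There 3 fell without asp1-D333A replicate 3, beside 27% of all genes called. Under upper-quartile or total-count scaling 2 or 3 fell there, beside 16.6% or 16%. All 7 cell separation genes fell in asp1-D333A (median -0.42; 4 and 6 under upper-quartile and total-count scaling), among them eng1, a septum glucanase, by 0.66, while 3 of the 7 rose in the aps1 deletion. The part of cell cycle position in the histone values was not tested.

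Genes of sexual development mark cells that have left vegetative growth. Of 14 mating and meiosis genes, 1 rose and 7 fell in asp1-D333A, where 61.1% of all genes passed. In the aps1 deletion 1 rose and 5 fell, beside 16.6% of all genes called, and 8 fell without asp1-D333A replicate 3, beside 27%. Their summed CPM was 541 to 550.1 in WT, 425 to 471 in aps1 deletion cells and 244 to 292 in asp1-D333A. The master regulator ste11 was at 69.8 ± 7.02 CPM in WT and 31.6 ± 4.74 in asp1-D333A, a log2 fold change of -1.15.

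Among 25 genes for enzymes that modify histones, 4 rose and 10 fell in asp1-D333A (median -0.03), beside 30.3% and 30.8% of all genes. That balance turned to 9 higher and 5 lower under upper-quartile scaling and 7 and 4 under total-count scaling. The demethylase-like gene epe1 fell by 0.80 and the kinase gene bub1, whose product modifies H2A, by 0.54 on the log2 scale, while brl1, for a subunit of the H2B ubiquitin ligase, rose by 0.65 and the H4 acetyltransferase gene hat1 by 0.49. With aps1 deleted, 2 of the 25 rose, beside 16.6% of all genes called, and 8 without asp1-D333A replicate 3, beside 27%.

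**Figure D4:**
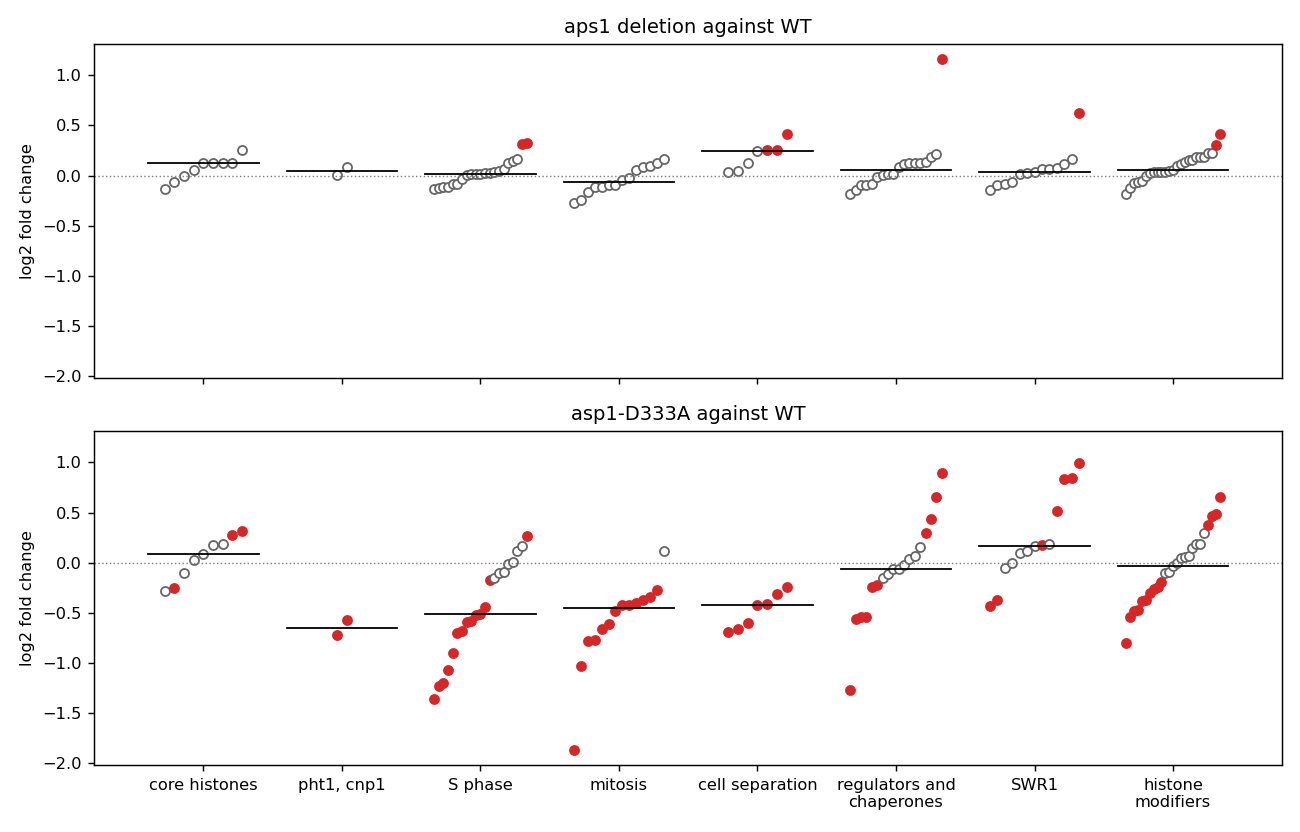
Log2 fold change against WT (y axis) in the aps1 deletion (top) and asp1-D333A (bottom) for the 9 core histone genes, the variants pht1 and cnp1, and 6 lists of related genes; each point is a gene, filled red where its adjusted p was under 0.05 (edgeR quasi-likelihood test), and lines are medians. The S-phase, mitosis and cell separation lists have medians of -0.51, -0.45 and -0.42 in asp1-D333A, and the core histones 0.08; hta2 at -0.10 turns to 0.07 or 0.04 and the histone modifiers and the regulators turn from more falls to more rises under both other scalings.

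The repeat AACCCTAACCCT was also present in 11 promoters of other genes, and 10 of those genes were tested. In asp1-D333A 4 of the 10 rose and 3 fell (median -0.05), beside 61.1% of all genes called, and in the aps1 deletion 2 rose and 1 fell (median 0.08), beside 16.6%. The Hsp70 gene ssa1 had values on both sides of WT, at 105 ± 18.96 CPM in WT, 48.8 ± 10.07 in aps1 deletion cells and 224 ± 78.3 in asp1-D333A. Others among them were tbp1, for the TATA-binding protein, which rose by 0.62 in asp1-D333A, and erg1, of ergosterol synthesis, which rose by 0.68 in the aps1 deletion.

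The genes next to the histone genes moved in their own ways. In asp1-D333A, sec5 beside htb1 fell by 0.73 and rav1 beside hht3 by 0.43 on the log2 scale, while mce1 and rsd1 on either side of hta2 rose by 0.32 and 0.39. In the aps1 deletion, alg9 beside hht1 rose by 0.28 (SE 0.06; edgeR quasi-likelihood adjusted p = 0.0089). Beside pht1, which fell in asp1-D333A, the cell cycle kinase gene cdc2 had 196 ± 4.44 CPM in WT and 186 ± 9.06 in that mutant, and it did not pass the test. Antisense transcripts are annotated opposite hta1 (SPNCRNA.1194, 3.88 ± 3.02 CPM in WT) and opposite hhf3 (SPNCRNA.1611, 2.31 ± 2.40 CPM in WT). The histone genes they face were at 847 ± 46.3 and 586 ± 35.5 CPM in WT. RefSeq also annotates transcripts opposite hht1, hhf2, hta2, htb1 and pht1, which were not analysed here. On the same strand, SPNCRNA.1432 (3.54 ± 0.212 CPM in WT) overlaps hhf2 by 79 bases, and SPNCRNA.1194 overlaps htb1.

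The 5 genes whose log2 CPM followed the mean standardised profile of the 9 core genes most closely over the 9 libraries were SPCC622.15c, sib2, rpc37, tdh1 and fkh1, with likeness from 0.751 to 0.853 (Pearson's coefficient, best 5 of 5590 genes with a mean of at least 50 counts). The same libraries, depths and scaling enter both sides, and so the coefficient is a description of these 9 libraries only.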

How the data were processed

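RNA was taken from log-phase cultures by hot acid phenol, poly(A) RNA was selected, and libraries were made with a stranded kit and sequenced as read pairs, per the labels' protocols. The authors deposited raw counts, whole numbers per gene with no normalization; HISAT2 2.1.0, SAMtools, HTSeq 0.10.0, DESeq2 and build ASM294v2 are named in the submitters' processing notes. The strand setting, read length and treatment of multiply matching reads are not given in the sources used here.

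The counts were tested in edgeR 4.0.16 under R 4.3.3 (filterByExpr with minimum count 10, TMM, robust quasi-likelihood F test, 9 libraries in 1 group-means model). Benjamini-Hochberg adjustment ran over 6147 genes, with 839 identifiers removed, and called at 0.05. CPM uses TMM-scaled library sizes; per kb uses RefSeq exon lengths. SE is the log2 fold change divided by the square root of F. Of 6986 identifiers, 6846 were matched to RefSeq ASM294v3; 1 repeated identifier was summed. The method was tested on simulated data. Members and gene lists were chosen with earlier results of these data known. In each list up to 4 called genes with the largest change and a mean of at least 50 counts are named; 1 such gene is not reported here. Alternatives were other scalings, no filter, DESeq2 1.42.0, the 6 libraries of a pair, each library left out, and a replicate block. The list counts under other scalings or without asp1-D333A replicate 3 were chosen after seeing the data. Common biological coefficient of variation was 0.0917.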

Additional observations from a re-analysis of the deposited data

How the results depend on the processing

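Over all alternatives, 400 of the single-gene values kept direction and side of the threshold, 24 passed it, 7 lost it and 29 turned direction. In the aps1 deletion against WT, 1 histone gene was called by DESeq2, beside 18.9% of all genes, and 1 with the 6 libraries of the pair, beside 24.8%. With a library left out 0 to 1 were called, beside 8.71% to 27% of all genes. The genes called over the whole table ranged from 539 to 1668, the highest without asp1-D333A replicate 3. In asp1-D333A against WT, 3 to 6 histone genes were called with a library left out, beside 52.8% to 64% of all genes. In the aps1 deletion against asp1-D333A, 4 histone genes were called under upper-quartile and 4 under total-count scaling, beside 72% and 69.8% of all genes. With a library left out 1 to 5 were called, beside 62.3% to 71.3% of all genes.

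Between the mutants the replicate block called 2 histone genes, pht1 and htb1 (0.45), and 3855 genes in all, 63.1% of those tested. Same-numbered libraries correlated at 0.146, 0.061 and -0.131 in their deviations, and libraries with unlike numbers at -0.233 to 0.218. These values showed no pairing by number, but with 3 libraries a strain they cannot exclude it. WT carries other numbers and has no block.

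Values that turned direction were at most 0.18 in size, reached by hhf3 in asp1-D333A against WT and by hta2 between the mutants. Against WT in the aps1 deletion, hht1 was -0.0085 under total counts, hht2 -0.043 and -0.060, and pht1 -0.039 and -0.054 under upper-quartile and total-count scaling; with a library left out hht2 ran from -0.047 to 0.083, hta2 from -0.14 to 0.020 and pht1 from -0.025 to 0.041. In asp1-D333A against WT, hta2 was 0.070 and 0.036 under those scalings, and with a library left out hht1 ran from -0.076 to 0.17 and hhf3 from -0.18 to 0.12. Between the mutants hht3 was -0.14 and -0.13, hhf3 -0.12 and -0.10, hta1 -0.10 and -0.084, and hta2 -0.18 and -0.16 under those scalings; with a library left out hht1 ran from -0.12 to 0.13 and hta2 from -0.037 to 0.12. The cause was not tested. With 3 libraries a strain the spread between libraries, not depth, limits the histone values.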
